A study of Mus musculus with 12 samples.

Results

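Integrins and laminins were followed as a set of 36 genes in cells sorted from mouse brain tumors and from control cerebellum. The set holds 18 integrin alpha genes, 8 integrin beta genes and 10 laminin chain genes, and was picked by symbol from the 54547 genes of the deposited table. All 36 were found there once. All 36 also passed the filter on low values, which asked for 10 or more normalized counts in 3 or more libraries. They were compared across 4 groups of 3 libraries. RasV12 GFP+ cells and RasV12 CD11b+ phagocytes came from tumors of Msi1-CreER;RasV12 mice, and control GFP+ cells and control CD11b+ phagocytes from the cerebellum of Msi1-CreER;GFP mice. Every animal was on a mixed 129 and C57BL/6 background and carried Msi1-CreER, a tamoxifen-inducible Cre recombinase driven from the Musashi-1 gene, which is active in neural stem and progenitor cells. RasV12 is an oncogenic form of Ras. Ages, sort gates, and how the tumor cells carry GFP were not stated in the labels. Tumor and cerebellum differ in tissue as well as genotype, so these cannot be told apart in the RasV12 comparisons. Whether replicates came from separate animals is not stated, and a p-value here measures only how these libraries vary, part of which may be technical.

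Integrins are receptors made of 1 alpha and 1 beta chain that bind cells to the extracellular matrix and to each other. The alpha chain largely sets the ligand: collagens, laminins, proteins with an RGD sequence such as fibronectin, or, on leukocytes, ligands on other cells. Laminins are secreted proteins of 1 alpha, 1 beta and 1 gamma chain that build basement membranes, in brain chiefly those of blood vessels and of the brain surface. CD11b, on which the phagocytes were sorted, is itself an integrin alpha chain, the product of Itgam.

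Recovered read totals were 21227344 to 34432725 in RasV12 GFP+ libraries and 18519240 to 32624399 in control GFP+ libraries. RasV12 CD11b+ 1, 2 and 3 had 3642570, 2951629 and 23589310 reads, and control CD11b+ libraries 7883870 to 34601205. Mitochondrial genes took 20.1% to 30.43% of counts in control GFP+ libraries and 1.53% to 2.62% in RasV12 GFP+ libraries. They took 13.3% to 17.67% in RasV12 CD11b+ and 0.63% to 2.54% in control CD11b+ libraries. Genes with a read numbered 17669 to 21101 in control GFP+ and 26528 to 28240 in RasV12 GFP+ libraries. The part of these differences in the results was not tested. Levels below are normalized counts, and 1 read was worth 4.4563 and 5.5382 of them in RasV12 CD11b+ 1 and 2. Replicates correlated across genes, which are not independent, with r of 0.842 to 0.88 in RasV12 GFP+, 0.812 to 0.843 in control GFP+, 0.512 to 0.537 in RasV12 CD11b+ and 0.657 to 0.887 in control CD11b+ cells. Odorant and vomeronasal receptor genes, silent in these cells, reached 59.8 to 91.5 counts per kb in RasV12 CD11b+ cells. They reached 38.1 in control CD11b+ 2, but 4.66 and 4.82 in controls 1 and 3. GFP+ libraries had 0.837 to 3.43. These counts are called background here, and they were estimated for each member from receptor genes and other unproven transcript models of like GC content, scaled by exon length. Itgam checked the sort, with 1350.2, 1356.8 and 3101.3 in RasV12 CD11b+ cells, 5009.8, 5084.6 and 5256.1 in control CD11b+ cells, and 1 read in all 6 GFP+ libraries together.

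**Figure D1:**
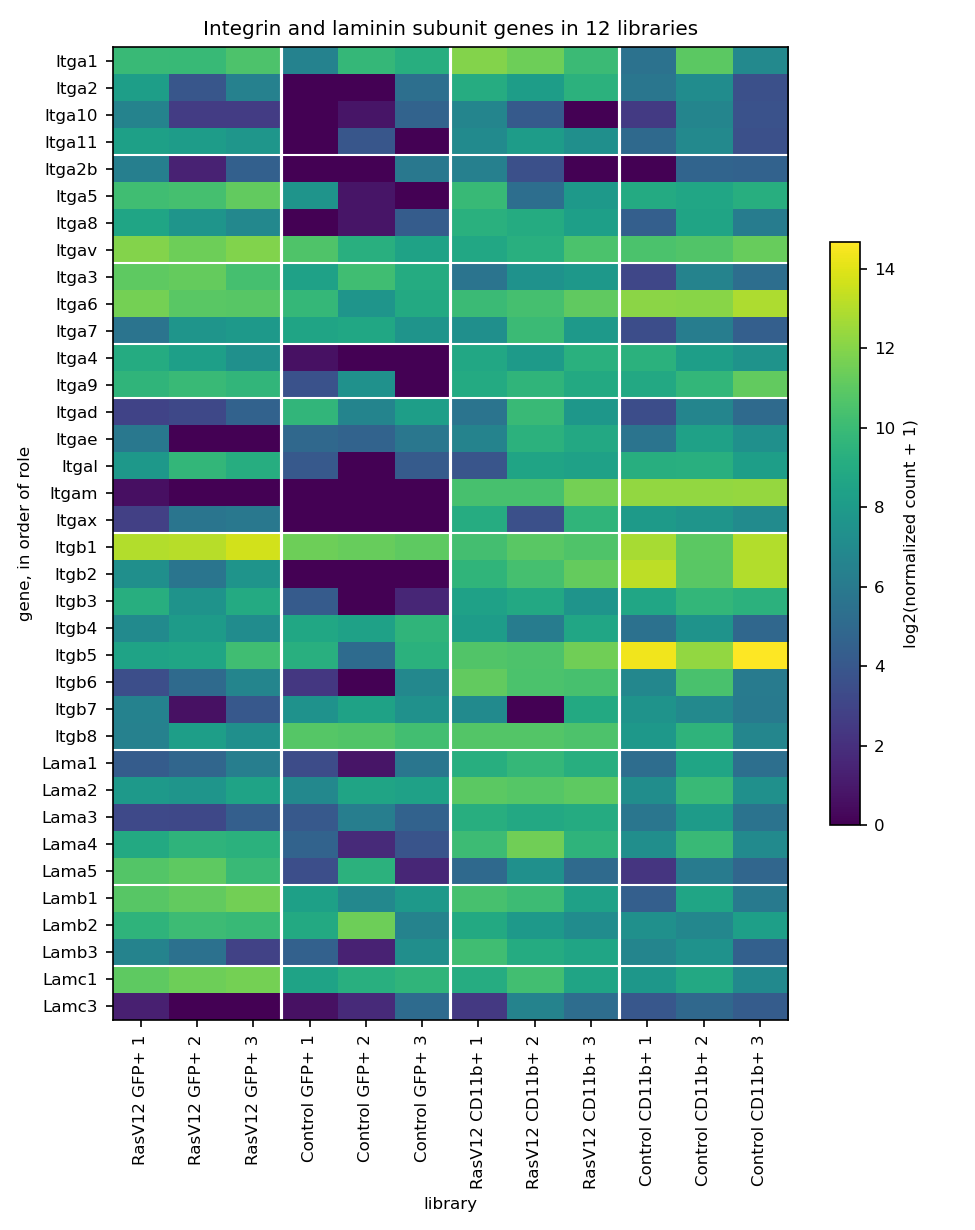
Level of the 36 members (rows, grouped by role) in each of the 12 libraries (columns), as log2(normalized count + 1) on a colour scale. Itgb5 is brightest, in control CD11b+ 1 and 3 (21174.4 and 26387.8 normalized counts), Itgam is bright in the CD11b+ columns alone, and Itgb2 is at 0 in the control GFP+ columns.

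Tumor GFP+ cells had more RNA of the receptor chains for fibronectin, other RGD proteins, VCAM1 and tenascin, and of the laminin chains Lama4, Lamb1 and Lamc1, and less of Itgb8. Against control GFP+ cells, 14 of 36 members (38.9%) rose and 2 (5.56%) fell at an adjusted p under 0.05. Over all 29835 genes tested, 4.14% were called higher and 2.65% lower. The median log2 fold change of the members was 2.05, against 0.56 for all genes. The risen members were Itga4, Itga5, Itga6, Itga8, Itga9, Itga11, Itgal, Itgav, Itgb1, Itgb2, Itgb3, Lama4, Lamb1 and Lamc1, and those that fell were Itgad and Itgb8. In every RasV12 GFP+ library 18 members were higher than in any control GFP+ library, and 4 were lower, against 17.2% and 10.9% of all genes. After upper-quartile rescaling the members called were 15 higher and 1 lower, and after quantile normalization 8 and 1. These scalings put the median of all genes at 0.91 and -0.12 and the share of calls that were higher at 76.2% and 49.3%, against 60.9%. Bulk libraries cannot tell fewer cells of a type from less RNA per cell. Without RasV12 GFP+ 1, 2 or 3 the members called were 9, 10 and 8.

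Promoter sequences are shown for 5 of the members that rose in tumor GFP+ cells and for Itgb8, which fell, so that genes that moved together can be read side by side. The 5 are abundant receptor and laminin chains and Itga4. They are from RefSeq (GRCm38.p6), 250 bases before to 50 after the annotated start, 5′ to 3′ on the gene's own strand. Capitals mark matches, on either strand, to 4 motifs: Sp1 (GGGCGG), AP-1 (TGANTCA), ETS (CGGAAGT) and PU.1 (GAGGAAGT). The last pair share GGAAGT but differ in the base before it, so neither can match the same place as the other.
Itga4, chr2:79255176-79255475, plus strand: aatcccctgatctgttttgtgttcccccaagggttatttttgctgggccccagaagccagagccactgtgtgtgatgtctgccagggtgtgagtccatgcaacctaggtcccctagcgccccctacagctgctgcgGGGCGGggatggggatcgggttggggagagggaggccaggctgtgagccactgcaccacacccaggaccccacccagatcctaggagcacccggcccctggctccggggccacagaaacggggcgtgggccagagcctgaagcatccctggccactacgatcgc
Itga5, chr15:103366742-103367041, minus strand: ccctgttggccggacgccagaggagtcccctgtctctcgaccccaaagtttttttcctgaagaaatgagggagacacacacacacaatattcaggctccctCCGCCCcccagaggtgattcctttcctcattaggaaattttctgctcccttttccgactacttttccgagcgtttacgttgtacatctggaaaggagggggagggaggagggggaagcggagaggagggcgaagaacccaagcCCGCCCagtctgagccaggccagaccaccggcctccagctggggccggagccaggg
Itgav, chr2:83724147-83724446, plus strand: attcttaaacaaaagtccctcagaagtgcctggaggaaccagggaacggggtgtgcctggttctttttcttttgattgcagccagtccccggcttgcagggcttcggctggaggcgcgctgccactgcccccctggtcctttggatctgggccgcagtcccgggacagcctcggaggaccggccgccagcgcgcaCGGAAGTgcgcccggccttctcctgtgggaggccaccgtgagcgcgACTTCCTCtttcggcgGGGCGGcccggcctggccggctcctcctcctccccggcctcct
Itgb1, chr8:128685404-128685703, plus strand: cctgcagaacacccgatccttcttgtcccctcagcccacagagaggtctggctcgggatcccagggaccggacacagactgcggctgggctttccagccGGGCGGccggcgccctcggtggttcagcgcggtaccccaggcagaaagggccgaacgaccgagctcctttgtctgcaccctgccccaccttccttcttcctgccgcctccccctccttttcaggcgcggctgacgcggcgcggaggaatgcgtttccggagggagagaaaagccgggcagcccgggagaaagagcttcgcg
Lamb1, chr12:31265043-31265342, plus strand: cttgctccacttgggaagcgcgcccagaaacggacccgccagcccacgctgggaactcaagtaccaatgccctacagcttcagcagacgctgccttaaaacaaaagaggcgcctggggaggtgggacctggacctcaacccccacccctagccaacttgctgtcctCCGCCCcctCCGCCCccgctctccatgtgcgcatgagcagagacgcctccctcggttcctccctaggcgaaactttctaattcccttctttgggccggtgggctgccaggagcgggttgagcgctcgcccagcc
Itgb8, chr12:119238227-119238526, minus strand: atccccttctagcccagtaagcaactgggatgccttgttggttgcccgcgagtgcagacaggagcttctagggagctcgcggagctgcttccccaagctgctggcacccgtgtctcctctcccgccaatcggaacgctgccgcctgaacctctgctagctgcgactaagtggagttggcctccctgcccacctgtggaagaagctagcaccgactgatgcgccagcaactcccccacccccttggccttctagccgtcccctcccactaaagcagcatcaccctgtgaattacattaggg
The Sp1 letters stood in each of the 5 promoters of risen genes, 2 times in Itga5 and in Lamb1, and not in that of Itgb8. The other risen members with a promoter, Itga8, Itga9 and Itga11, are not printed and held no Sp1 letters. The contrast with Itgb8 therefore follows from which promoters were printed. Itgav held 1 match each to the ETS and PU.1 letters as well. RefSeq promoters were found for 23 members, and 11 of these (47.8%) held the Sp1 letters, against 35.9% of the 32544 promoters of the same length. AP-1 letters were in promoters of 3 members (13.0%, against 7.79%), ETS letters in 1 (4.3%, against 6.46%) and PU.1 letters in 4 (17.4%, against 3.11%). The units differ: a member counts if any of its promoters matched, with 26 promoters for the 23 members, while the reference share is per promoter. Of the 8 risen members with a promoter, 5 held the Sp1 letters, 2 the PU.1 letters, 1 the AP-1 letters and 1 the ETS letters. These are matches of letters in a window and no measure of binding.

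Both alpha chains of the alpha4 and alpha9 class rose. Itga4 (chromosome 2, 79255426 to 79333123, GRCm38), whose product pairs with beta1 or beta7 and binds VCAM1 and fibronectin, had 516.2, 315.9 and 167.0 normalized counts in RasV12 GFP+ cells 1, 2 and 3, against 0.6, 0.0 and 0.0 in control GFP+ cells. All 3 tumor libraries were far above the 1 read found in the 3 controls. The ratio was 1252 (95% interval 224.5 to 49480, which like the floors below covers counting error only), and the log2 fold change 8.01 ± 0.89 (adjusted p = 0.000238). Exons of Cerkl overlap those of Itga4 on the opposite strand by 1124 bases, and these libraries do not mark strand. Itga9 (chromosome 9, 118606690 to 118901003), a partner of beta1 that binds tenascin C and osteopontin, had 786.7, 971.6 and 812.6 in RasV12 GFP+ cells, against 11.9, 174.8 and 0.0 in control GFP+ cells. The tumor libraries were close together and the control libraries spread widely below them. Its log2 fold change was 6.02 ± 1.36 (adjusted p = 0.0165), and the call was lost without RasV12 GFP+ 1, 2 or 3 (adjusted p = 0.0619, 0.0642 and 0.0578).

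Of the 4 RGD-binding alpha chains, 3 rose. Itga5 (chromosome 15, 103344286 to 103366763), the alpha chain of the classical fibronectin receptor, had 1161.1, 1321.3 and 2257.1 in RasV12 GFP+ cells, against 193.0, 0.8 and 0.0 in control GFP+ cells. Control 1 stood well above the other two controls but far below each tumor library. The log2 fold change was 7.75 ± 1.64 (adjusted p = 0.012), and 0.0538 without RasV12 GFP+ 3. Itgav (chromosome 2, 83724397 to 83806916), which pairs with several beta chains and binds vitronectin and latent TGF-beta, had 3962.3, 2783.1 and 3792.1 in RasV12 GFP+ cells and 1607.7, 625.5 and 356.1 in control GFP+ cells. It was expressed in every library of both groups and higher in each tumor one (log2 fold change 2.29 ± 0.58, adjusted p = 0.0306). That call was lost without any of RasV12 GFP+ 1, 2 and 3 or control GFP+ 2 and 3 (adjusted p of 0.0732 to 0.115). Itga8, a receptor chain for nephronectin, had 397.9, 202.4 and 113.4 in RasV12 GFP+ cells and 0.0, 0.8 and 18.3 in control GFP+ cells. Its groups did not overlap (log2 fold change 6.01 ± 1.29, adjusted p = 0.0131), and without RasV12 GFP+ 1 the adjusted p was 0.0663. Itga2b, the alpha chain of the platelet fibrinogen receptor, did not pass, with 80.8, 1.7 and 21.8 against 0.0, 0.0 and 58.0.

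Among collagen receptors only Itga11 of 4 passed the test. It had 321.1, 276.3 and 209.2 in RasV12 GFP+ cells, against 0.0, 14.4 and 0.0 in control GFP+ cells. The tumor libraries were alike and the controls near 0 (log2 fold change 6.74 ± 1.25, adjusted p = 0.00576), and the call held without any single library. Itga1, Itga2 and Itga10, also collagen receptor chains, did not pass (Itga1 at 1.65 ± 1.18, adjusted p = 0.527, Itga2 at 4.42 ± 1.58, 0.125, and Itga10 at 2.09 ± 1.91, 0.664). Of the 3 laminin receptor alpha chains 1 rose. Itga6, the laminin receptor chain that pairs with beta1 or beta4, had 3126.9, 1965.1 and 1889.1 in RasV12 GFP+ cells and 878.4, 197.3 and 480.2 in control GFP+ cells. Every tumor library was higher than any control library (log2 fold change 2.37 ± 0.53, adjusted p = 0.0155), though the call was lost without RasV12 GFP+ 1 or control GFP+ 2 (adjusted p = 0.0802 and 0.0523). Itga3 also did not overlap, at 2118.0, 2366.3 and 1309.7 against 343.9, 1167.7 and 516.8, but did not pass (log2 fold change 1.66 ± 0.93, adjusted p = 0.381). Itga7, known as the laminin receptor chain of muscle, had a log2 fold change of -1.25 ± 1.02 (adjusted p = 0.604).

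Leukocyte integrin chains did not move as 1 block in GFP+ cells. Itgal, the alpha chain of LFA-1, which binds ICAM1, had 227.6, 835.2 and 558.3 in RasV12 GFP+ cells, against 16.0, 0.0 and 17.3 in control GFP+ cells. Tumor libraries were all higher (log2 fold change 6.13 ± 1.38, adjusted p = 0.0165), with the call lost without RasV12 GFP+ 2 or 3 or control GFP+ 2 (adjusted p = 0.0764, 0.0637 and 0.0533). Itgb2 (chromosome 10, 77530252 to 77565708), the beta chain shared by LFA-1 and CD11b, had 156.7, 50.4 and 192.8 in RasV12 GFP+ cells and no read in control GFP+ cells. With a floor of 3 reads for the control group as a whole, it was at least 188.1-fold higher (log2 fold change 6.86 ± 0.86, adjusted p = 0.000537), and the call held without any single library. Itgad, another partner of the beta2 chain, fell to 6.8, 8.0 and 23.2 in RasV12 GFP+ cells, against 820.8, 99.4 and 295.0 in control GFP+ cells. Controls differed widely among themselves (log2 fold change -4.60 ± 1.28, adjusted p = 0.0469), 4 other genes overlap its exons, and the call was lost without RasV12 GFP+ 1, 2 or 3, control GFP+ 1 or 3, RasV12 CD11b+ 3 or control CD11b+ 1 or 3 (adjusted p of 0.0504 to 0.16). Itgax, the CD11c chain, had 5.9, 52.2 and 59.0 in RasV12 GFP+ cells and no read in the controls (at least 51.95-fold higher, adjusted p = 0.0749). Itgae, a receptor chain for E-cadherin, had a log2 fold change of -3.18 ± 1.52 (adjusted p = 0.281).

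Itgam itself, the defining chain of the phagocytes, had 0.5, 0.0 and 0.0 in RasV12 GFP+ cells and 0.0 in each control GFP+ library. Summed over 14 myeloid markers, counts were 1330 to 2525 in RasV12 GFP+ cells and 465.8 to 1530 in control GFP+ cells, and 1 of the 14 rose and none fell. Cd68, a lysosomal protein of macrophages, had 1497.0, 1346.5 and 868.0 in RasV12 GFP+ cells and 102.2, 0.0 and 1.0 in control GFP+ cells. Tmem119, of microglia, was at 0.0 in each RasV12 GFP+ library, against 0.0, 268.7 and 13.2 in control GFP+ cells, and Aif1 and Csf1r were at 0.0 in each control GFP+ library. Their part in the Itgb2 and Itgal results was not tested. Ptprc, the pan-leukocyte gene of CD45, had 112.4, 180.6 and 28.6 in RasV12 GFP+ cells and 1.8, 3.2 and 94.6 in control GFP+ cells. Lymphocyte markers summed to 37.3 to 115.6 and 0.0 to 90.4, and neutrophil markers to 4.6 to 69.2 and 0.8 to 100.4.

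Among beta chains, Itgb1 dominated and rose. Itgb1 (chromosome 8, 128685654 to 128733200), the partner of most alpha chains that bind matrix, had 8146.4, 8670.8 and 13222.8 in RasV12 GFP+ cells, against 2767.6, 2496.6 and 2131.3 in control GFP+ cells. Replicates were close in both groups and far apart between them (log2 fold change 2.0 ± 0.44, adjusted p = 0.0151), and the adjusted p was 0.0752 without RasV12 GFP+ 3. Itgb3 (chromosome 11, 104608000 to 104670476), the beta chain of the vitronectin receptor and of the platelet fibrinogen receptor, had 580.8, 183.4 and 508.2 in RasV12 GFP+ cells, against 17.8, 0.0 and 2.0 in control GFP+ cells. All tumor libraries were higher (log2 fold change 6.63 ± 1.04, adjusted p = 0.00212), and the call held without any single library. Markers of platelets and megakaryocytes moved the same way, with a sum over 9 genes of 1936 to 3760 in RasV12 GFP+ cells and 223.0 to 427.6 in control GFP+ cells. Most of that sum was Pf4, a platelet chemokine, at 3586.6, 2987.7 and 1830.4 against 54.6, 36.9 and 0.0, while 1 of the 9 rose and 1 fell. Their part in the Itgb3 result was not tested.

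Itgb8 went the other way. Itgb8 (chromosome 12, 119158022 to 119238802), which pairs only with alpha v and activates latent TGF-beta, fell to 87.6, 299.2 and 160.9 in RasV12 GFP+ cells, against 1810.2, 1652.9 and 1215.7 in control GFP+ cells. Control libraries were alike and every tumor library lay far below them (log2 fold change -3.24 ± 0.70, adjusted p = 0.0134). The call was lost without RasV12 GFP+ 1 (adjusted p = 0.0649). Astrocyte and Bergmann glia markers were lower as well, with a sum of 36631 to 95583 in RasV12 GFP+ cells and 280339 to 311269 in control GFP+ cells, and so were oligodendrocyte markers, at 2890 to 17728 and 974235 to 1614564. Of 9 astrocyte markers 5 fell and of 10 oligodendrocyte markers 9 fell, and none of either rose. Their part in the Itgb8 result was not tested. The other beta chains did not pass: Itgb4, the laminin receptor chain of epithelia, had a log2 fold change of -1.51 ± 0.92 (adjusted p = 0.429), Itgb5 1.2 ± 0.98 (0.605), Itgb6 2.02 ± 1.59 (0.584) and Itgb7 -4.04 ± 1.94 (0.283).

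**Figure D2:**
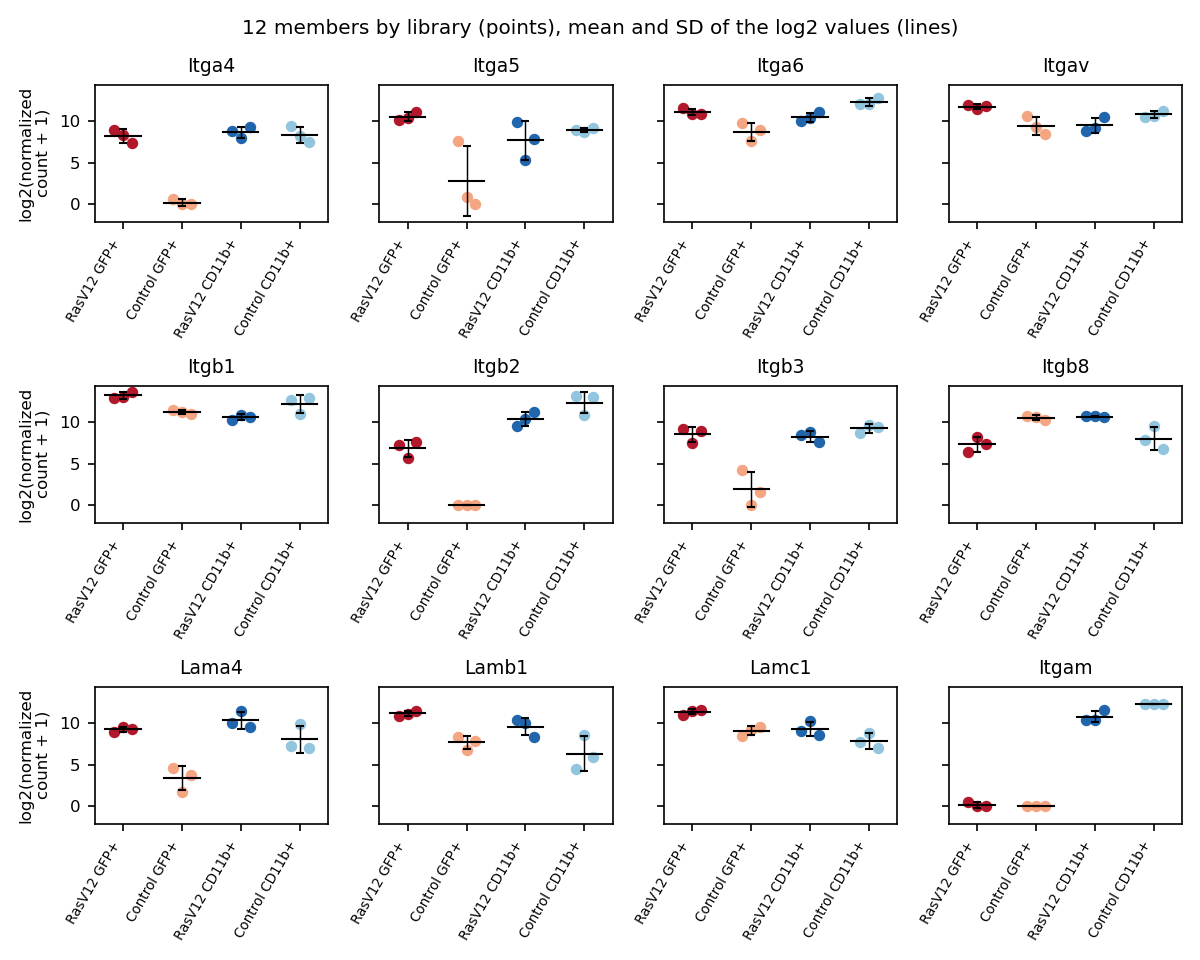
Normalized counts of 12 members in each library (points), as log2(normalized count + 1), with the mean (horizontal line) and SD (bar) of those log2 values over 3 libraries per group. Itga4, Itgb2, Itgb3 and Lama4 are lower in each control GFP+ library than in any other library, and Itgb8 is higher in control GFP+ and RasV12 CD11b+ cells than in RasV12 GFP+ cells.

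Laminin chains that rose were 1 alpha, 1 beta and 1 gamma chain. Lama4 (chromosome 10, 38965515 to 39110188), the laminin alpha4 chain of vessel walls, had 482.3, 760.7 and 664.1 in RasV12 GFP+ cells, against 24.4, 2.4 and 13.2 in control GFP+ cells. Tumor libraries were alike and far above each control (log2 fold change 5.87 ± 0.98, adjusted p = 0.00297), and the call held without any single library. Lamb1 (chromosome 12, 31265234 to 31329644) had 1883.6, 2309.0 and 2996.7 in RasV12 GFP+ cells and 320.1, 113.9 and 244.2 in control GFP+ cells. Lamc1 (chromosome 1, 153218922 to 153332786), the gamma chain of most laminins, had 2112.6, 2785.4 and 3189.5 in RasV12 GFP+ cells and 362.9, 610.3 and 779.3 in control GFP+ cells. Both were higher in every tumor library, Lamb1 by 3.50 ± 0.94 (adjusted p = 0.0395) and Lamc1 by 2.25 ± 0.62 (adjusted p = 0.045) on the log2 scale. Each was called in only 5 of the 12 fits that left out a library. The losses were without any GFP+ library and, for Lamb1, without control CD11b+ 3 (adjusted p of 0.0556 to 0.131), and for Lamc1 without control CD11b+ 1 (0.0585 to 0.151).

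The other laminin alpha chains did not pass. Lama5, found in most mature basement membranes, had 1739.6, 2107.2 and 1007.1 in RasV12 GFP+ cells and 10.7, 690.5 and 2.0 in control GFP+ cells. Its groups did not overlap, and 1 control library stood apart from the other two (log2 fold change 5.74 ± 1.68, adjusted p = 0.0578). Lama2, the chain mutated in a congenital muscular dystrophy, had a log2 fold change of 0.09 ± 0.77, and Lama1 and Lama3 had 1.79 ± 1.31 and -1.36 ± 1.01 (adjusted p = 1, 0.542 and 0.548). Lamb2, Lamb3 and Lamc3 had 0.86 ± 0.99, 0.57 ± 1.46 and -2.11 ± 1.41 (adjusted p = 0.75, 0.915 and 0.487). Lamb2 reached 2759.6 in control GFP+ 2, against 488.2 and 93.6 in controls 1 and 3. Vascular cells are a known source of basement membrane laminins. Summed over 13 endothelial genes, counts were 2823 to 3408 in RasV12 GFP+ cells and 15283 to 25098 in control GFP+ cells, with 7 lower and none higher. Of 11 pericyte and smooth muscle markers 1 rose and 4 fell (sum 4390 to 6715 and 4252 to 10923), and of 8 fibroblast and meningeal markers tested 1 fell. Their part in the laminin results was not tested.

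Background was small for most of the risen members in RasV12 GFP+ cells. The estimate came to 0.2% of the observed count for Itgb1, 0.9% for Itga5 and Lamc1, 1.2% for Lamb1, 6.7% for Itgb2 and 7.9% for Lama4, and to 22.2% for Itga4. In control GFP+ cells the estimate for Itga4, 39.1, was above its observed mean of 0.2. With background subtracted in all libraries, a setting chosen after the data were seen, 5 of the 16 calls remained: Itga11, Itgal, Itgb2, Itgb3 and Lama4. The log2 fold changes of the lost ones moved little for Itga4 (7.84 ± 1.88, adjusted p = 0.0588), Itga5 (8.05 ± 2.56, 0.17), Itgb1 (2.0 ± 0.52, 0.0825) and Lamc1 (2.30 ± 0.65, 0.11), while their standard errors, which the model takes from all 4 groups, grew. Itgb8 was then at -4.49 ± 1.74 (adjusted p = 0.28), but kept its call with receptor background subtracted (adjusted p = 0.0289).

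Rap1b, Lims1 and Tln1 rose among the genes that link integrins to the cytoskeleton, and Tns1 fell. Of 35 tested genes of integrin activation and focal adhesion, 3 rose and 1 fell in RasV12 GFP+ cells (median log2 fold change 0.27, against 0.56 for all genes), where 4.14% of all genes rose and 2.65% fell. Rap1b, a small GTPase that activates integrins, had 12609.5, 12040.3 and 13448.1 in RasV12 GFP+ cells and 5210.4, 2604.8 and 2326.6 in control GFP+ cells (log2 fold change 2.0 ± 0.39, adjusted p = 0.0075). Lims1, of the focal adhesion complex with integrin-linked kinase, and Tln1, the talin that binds beta tails, also rose (Lims1 by 1.68 ± 0.39, adjusted p = 0.019, and Tln1 by 1.43 ± 0.38, adjusted p = 0.0407). The one that fell was Tns1, a tensin of focal adhesions, at 34.3, 17.2 and 1.1 against 450.8, 848.5 and 691.8 (-5.86 ± 0.95, adjusted p = 0.00263). Of 25 laminin partners and basement membrane genes, 1 rose and 1 fell (median log2 fold change 0.97), near the share of all genes. Col18a1, a basement membrane collagen, rose to 2147.8, 2162.3 and 2114.0 in RasV12 GFP+ cells, against 67.7, 44.1 and 165.8 in control GFP+ cells. Sparc, a matrix protein that binds collagen, fell to 25014.0, 41643.0 and 37103.5 in RasV12 GFP+ cells, against 151100.7, 128062.2 and 118878.1 in control GFP+ cells. The log2 fold change was 4.74 ± 0.87 for Col18a1 (adjusted p = 0.00552) and -1.97 ± 0.33 for Sparc (adjusted p = 0.00313).

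Of 30 tested integrin ligands other than laminins, 9 rose and 3 fell, beside 4.14% and 2.65% of all genes. Spp1, the gene of osteopontin, a ligand of alpha v and alpha9 integrins, had 356206.6, 188242.1 and 156359.3 in RasV12 GFP+ cells and 502.4, 144.4 and 389.6 in control GFP+ cells. Fn1, the gene of fibronectin, had 24099.9, 8705.2 and 13589.1 in RasV12 GFP+ cells and 744.8, 1792.4 and 1003.1 in control GFP+ cells. Both ligand genes were higher in each tumor library, Spp1 by 9.48 ± 0.68 (adjusted p = 1.21e-05) and Fn1 by 3.68 ± 0.53 (adjusted p = 0.00132) on the log2 scale. Thbs2, a thrombospondin, had 1236.9, 843.8 and 834.4 in RasV12 GFP+ cells and no read in control GFP+ cells (adjusted p = 8.4e-05). Vtn, the gene of vitronectin, moved the other way, at 16.3, 0.0 and 0.0 in RasV12 GFP+ cells and 2153.5, 1089.1 and 1595.2 in control GFP+ cells (log2 fold change -9.23 ± 1.23, adjusted p = 0.000744). The median log2 fold change of the 30 was 1.04, against 0.56 for all genes.

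Compared per length, as FPKM (fragments per kilobase), tumor GFP+ cells had more of all 3 families. For the members the FPKM were in fixed proportion to the normalized counts of the gene, within rounding, and share their scaling. Alpha chains summed to 106, 96.6 and 99.2 FPKM in RasV12 GFP+ cells, against 35.3, 26.4 and 20 FPKM in control GFP+ cells. Beta chains summed to 139, 142 and 228 FPKM against 69.1, 56.8 and 61.0, and laminin chains to 47.6, 60.8 and 61.3 FPKM against 10.3, 37.7 and 11.5. Each of these 3 sums was higher in every tumor library, and the sums were not tested. Within the alpha chains of RasV12 GFP+ cells, Itga3 (20.2% ± 5.97 of the summed FPKM), Itgav (19.4% ± 2.95), Itga5 (19.2% ± 7.47) and Itga6 (15.3% ± 3.80) led and did not differ beyond their spread. In control GFP+ cells Itga3 led with 27.9% ± 18.2, followed by Itgad (18.4% ± 13.0), Itgav (16.3% ± 8.17) and Itga6 (12.5% ± 6.52), all SD with n = 3, and these overlapped too.

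Itgb1 made up 87.2% ± 2.46 of beta chain FPKM in RasV12 GFP+ cells and 58.3% ± 6.67 in control GFP+ cells. Itgb8 made up 0.628% ± 0.435 and 13.6% ± 2.56, and Itgb5 6.32% ± 2.49 and 12% ± 9.63. The first pair of shares stood apart by more than their spread and the last did not. Laminin FPKM in RasV12 GFP+ cells was led by Lamc1 (34.4% ± 2.94) and Lamb1 (25.5% ± 3.52), with Lamb2 at 16.1% ± 0.863, Lama5 at 15.4% ± 5.88 and Lama4 at 5.56% ± 0.623. In control GFP+ cells Lamb2 had 42.2% ± 32.4 and Lamc1 28.8% ± 19.2, which overlapped.

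**Figure D3:**
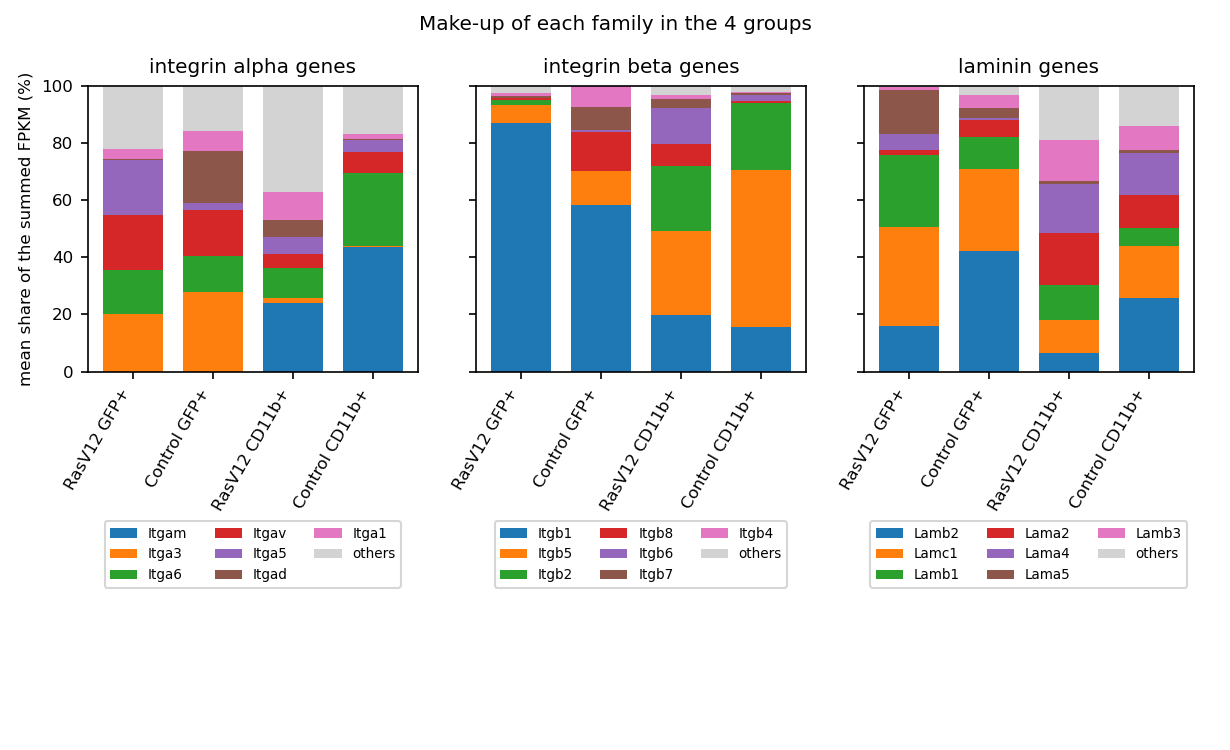
Mean share of the summed FPKM taken by each gene within integrin alpha, integrin beta and laminin genes, as stacked bars for the 4 groups (3 libraries each), with the 7 leading genes per family named and the remainder in grey. Itgb1 fills 87.2% of the beta bar in RasV12 GFP+ cells, and Itgb5 fills 55.1% in control CD11b+ cells.

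In the phagocytes few members separated tumor from control. Of 36 members 1 rose (Itgb8) and 1 fell (Itgb1) in RasV12 CD11b+ cells against control CD11b+ cells. That is 2.78% each way, beside 2.97% higher and 2.39% lower (5.36% either way) over all genes, so the share of members called was near the background. The median log2 fold change was 1.27 for the members and 0.74 for all genes. A limma fit of the 6 CD11b+ libraries alone called no gene at all, member or other, at an adjusted p under 0.05. Libraries did not overlap for 8 members that were higher and 5 that were lower in the tumor, beside 19% and 8.59% of all genes. For the called members Itgb8 and Itgb1 the direction was the opposite of that in GFP+ cells. Background was high in these libraries, and the estimate reached at least 50% of the observed mean for 19 of 36 members in RasV12 CD11b+ cells and 20 of 36 in control CD11b+ cells. It equalled or passed the observed mean for 8 and 9 members, Itga4 among them in RasV12 CD11b+ cells (308.3%), and such members cannot be read as expressed at their level in that group. The same held where background per kb was low, for 11 members in control GFP+ and 4 in RasV12 GFP+ cells. A high share is therefore not particular to the CD11b+ libraries, and the estimate can exceed what was observed.

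**Figure D4:**
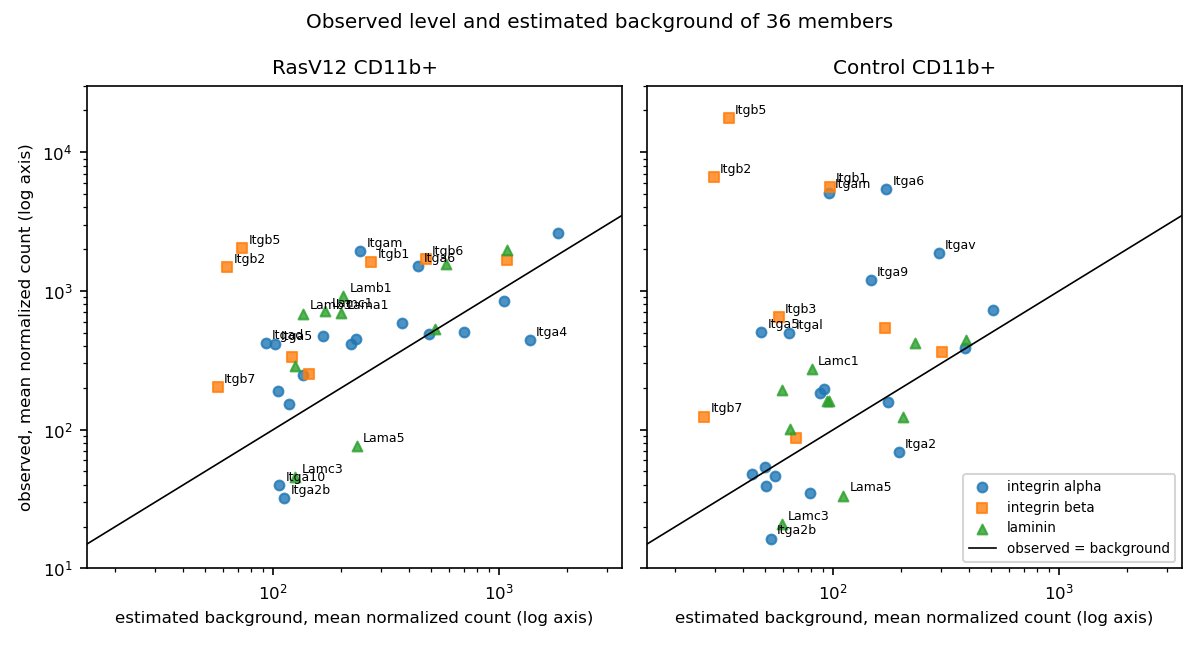
Observed mean normalized count of each member (vertical log axis) against its estimated background (horizontal log axis) in RasV12 CD11b+ cells (left) and control CD11b+ cells (right), 3 libraries each, with the line where both are equal and names where background was under 30% or over 250% of the observed count. Itgb5, Itgb2, Itgam and Itgb1 lie furthest above the line in both groups.

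Itgb1 had 1243.3, 1960.5 and 1608.9 in RasV12 CD11b+ cells, against 6888.8, 2065.6 and 8008.6 in control CD11b+ cells. The tumor libraries were all lower, but control 2 lay near the highest of them (log2 fold change -1.62 ± 0.44, adjusted p = 0.0495). The call held in only 1 of 12 fits that left out a library, namely that without control CD11b+ 2 (-2.24 ± 0.29, adjusted p = 0.00199), and adjusted p was 0.06 to 0.213 in the others. Itgb8 had 1697.8, 1739.0 and 1542.9 in RasV12 CD11b+ cells and 230.5, 746.9 and 106.8 in control CD11b+ cells. Tumor libraries were tightly grouped and higher than each control (log2 fold change 2.64 ± 0.70, adjusted p = 0.0444). Background came to 65.3% of its count in RasV12 CD11b+ cells and 83.5% in control CD11b+ cells. With background subtracted by GC class no member was called by limma, and with receptor background subtracted Itga6, Itgal and Itgb3 were called lower and neither Itgb1 nor Itgb8 was called. After GC class subtraction Itgb1 and Itgb8 missed the threshold (Itgb1 -1.84 ± 0.52, adjusted p = 0.0677, and Itgb8 4.75 ± 1.74, adjusted p = 0.132), while edgeR and DESeq2 without subtraction called 1 and 5. Itgb8 also lost its call without 10 of the 12 libraries, with adjusted p of 0.0528 to 0.185, and kept it without RasV12 GFP+ 1 and control CD11b+ 2.

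Itgam and Itgb5, abundant in microglia and macrophages, were lower in each tumor phagocyte library than in any control, and neither passed the test. Itgb5, which pairs with alpha v, had 1688.9, 1523.0 and 2935.6 in RasV12 CD11b+ cells and 21174.4, 4982.9 and 26387.8 in control CD11b+ cells (log2 fold change -2.84 ± 0.98, adjusted p = 0.0973). Itgam had a log2 fold change of -1.52 ± 0.86 (adjusted p = 0.269) on the counts given above. Its exons share 3450 bases with Gm49368 on the same strand. Itgb2 had 788.8, 1312.5 and 2383.7 in RasV12 CD11b+ cells and 9462.3, 1960.8 and 8299.9 in control CD11b+ cells, which overlapped at control 2 (-1.99 ± 0.86, adjusted p = 0.165). Myeloid markers as a whole were lower too, with a sum over 14 genes of 104001 to 172940 in RasV12 CD11b+ cells and 306425 to 961056 in control CD11b+ cells, though limma called none of the 14. Neutrophil markers summed to 2513 to 2967 and 17858 to 39834, with 3 of 9 tested lower, and endothelial markers to 7326 to 8839 and 1012 to 3567, with 2 of 13 higher. Their part in these results was not tested.

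Itga6, the second alpha chain of control phagocytes, had 1033.9, 1318.1 and 2157.2 in RasV12 CD11b+ cells and 4542.6, 4247.9 and 7491.1 in control CD11b+ cells. Each tumor library was below each control one, and control 2 lay beside control 1 (log2 fold change -1.87 ± 0.53, adjusted p = 0.0559, from 0.026 to 0.118 over 12 other settings). Itgav likewise did not overlap, at 441.2, 603.7 and 1475.6 against 1503.5, 1631.5 and 2521.9 (-1.32 ± 0.58, adjusted p = 0.168). Itga4, Itga5, Itga9, Itgal and Itgax overlapped, with log2 fold changes of 0.31 ± 0.89, -1.26 ± 1.64, -0.76 ± 1.36, -1.93 ± 1.38 and -0.15 ± 1.5.

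Laminin chains were measured at 28.6 to 53.1 summed FPKM in RasV12 CD11b+ cells, against 6.1, 21.8 and 6.6 FPKM in control CD11b+ libraries 1, 2 and 3. With the deposited scaling all 10 limma log2 fold changes were above 0 and none passed the test, and DESeq2 and edgeR called none (Lamb2 was at -0.5 by edgeR). Those of Lamb2 and Lamc3 were below 0 after upper-quartile rescaling, and those of Lama5, Lamb2 and Lamc3 after quantile normalization. With receptor background subtracted, Lama3 was at -0.78, Lamb2 at -5.07 and Lamc1 at -4.13, and Lama5 and Lamc3 were at 0.0 after either subtraction. Control CD11b+ 2, the control library with high background, was also the control with the highest laminin sum. Lama2 had 2009.8, 1766.7 and 2133.2 in RasV12 CD11b+ cells and 148.2, 1007.3 and 164.5 in control CD11b+ cells (2.75 ± 0.77, adjusted p = 0.0543). Its background share was 55.2% and 88.0%. Without control CD11b+ 2, 12 members were called: Itga1, Itga7, Itgb8, Lama2, Lama3, Lama4, Lamb1 and Lamc1 higher and Itga6, Itgb1, Itgb2 and Itgb5 lower. Calls over all 29835 genes grew in that fit too, to 3745 higher and 1503 lower, from 886 and 713 in the main fit. In that fit Lamb1 was at 4.39 ± 0.77 (adjusted p = 0.00765), Itga1 at 4.92 ± 0.95 (0.0104) and Itgb5 at -3.59 ± 1.07 (0.0429). The background per kb of the remaining controls was then 4.66 and 4.82, against 59.8 to 91.5 in the tumor libraries, and its part in those calls was not tested.

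Cd9, a tetraspanin that associates with integrins, fell to 811.0, 1406.7 and 1808.9 in RasV12 CD11b+ cells, against 20328.6, 4951.4 and 10007.8 in control CD11b+ cells (-2.98 ± 0.47, adjusted p = 0.00644). Sparc fell to 16969.4, 10439.4 and 14521.1, against 89102.9, 28428.8 and 66663.8 (-2.01 ± 0.33, adjusted p = 0.00756). Fn1 rose to 3885.9, 3588.7 and 9196.5 in RasV12 CD11b+ cells, against 1498.8, 1332.2 and 509.2 in control CD11b+ cells (log2 fold change 2.32 ± 0.53, adjusted p = 0.0271). Spp1 rose to 5138.1, 2370.3 and 7573.8, against 1795.1, 595.7 and 237.0 (2.83 ± 0.68, adjusted p = 0.0315). Mfge8, a bridge between apoptotic cells and alpha v integrins, fell to 89.1, 5.5 and 132.7, against 1050.4, 248.5 and 751.9 (-3.77 ± 0.93, adjusted p = 0.035). Edil3, of the same protein family, rose to 4933.1, 1822.1 and 2872.5, against 152.1, 1158.5 and 186.7 (3.20 ± 0.79, adjusted p = 0.0348). Its highest control was control CD11b+ 2, the control library with high background. Background shares of these partner genes are not given here, and the part of background in their calls was not tested. Of 35 genes of integrin activation and focal adhesion 1 rose and 1 fell, of 25 laminin partners 2 rose and 1 fell, and of 30 other ligands 5 rose and 1 fell, beside 2.97% and 2.39% of all genes.

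The RasV12 effect differed between phagocytes and GFP+ cells for 10 of 36 members by the interaction test, 2 above 0 and 8 below, where 2.06% and 2.34% (4.4% either way) of all genes were called. Below 0, that is with a lower RasV12 effect in CD11b+ than in GFP+ cells, were Itga4 (-7.70 ± 1.26, adjusted p = 0.00491), Itga6 (-4.24 ± 0.75, 0.00747), Itgb1 (-3.61 ± 0.62, 0.00674), Itgb2 (-8.85 ± 1.22, 0.00179) and Itgb3 (-7.62 ± 1.47, 0.0116). Above 0 was Itgb8 (5.89 ± 0.99, adjusted p = 0.0058). These 6 held in all 12 fits that left out a library. The remaining 4 were Itga5, Itgal and Itgav below 0 (-9.01 ± 2.31, -8.06 ± 1.95 and -3.61 ± 0.82, adjusted p = 0.0435, 0.0345 and 0.0254) and Itgad above 0 (7.32 ± 1.81, adjusted p = 0.0372), and each lost its call in several of those fits. Itga5 held only without RasV12 CD11b+ 1 or control GFP+ 1 (adjusted p of 0.0578 to 0.108 otherwise). Itgal held only without control GFP+ 1 or 3 or one of RasV12 CD11b+ 1, 2 and 3 (0.0524 to 0.0966 otherwise), and Itgav only without control GFP+ 1, control CD11b+ 2 or one of RasV12 CD11b+ 1, 2 and 3 (0.0504 to 0.0807 otherwise). Itgad held only without control GFP+ 2, RasV12 CD11b+ 1 or 3, or control CD11b+ 2 (0.0584 to 0.0994 otherwise). With background subtracted by GC class, Itga4, Itga6, Itgal, Itgb1, Itgb2 and Itgb3 remained called, and Itgb8 had an adjusted p of 0.0623. Itgb8 was called with receptor background subtracted (0.00626). For Itga4 the GC class estimate of 1466.9, 1567.2 and 1073.5 was above the 445.6, 254.8 and 631.8 observed in RasV12 CD11b+ 1, 2 and 3. Subtraction set these values to 0, so the Itga4 difference then held no measured level in RasV12 CD11b+ cells. No laminin chain was called by limma in this test. The median over the members was -1.36, against 0.07 for all genes and -0.84 for all genes after upper-quartile rescaling.

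Between the sorted populations of the same tissue, beta2 integrin marked the phagocytes in tumor and control, while Itga3 was higher in the GFP+ cells of both. In tumors, 11 of 36 members (30.6%) were higher and 5 (13.9%) lower in RasV12 CD11b+ than in RasV12 GFP+ cells, beside 29.8% and 10.2% (40.1% either way) of all genes. That balance turned with the setting, with 2 higher and 7 lower by edgeR, 4 and 12 with receptor background subtracted, and 2 and 6 with background subtracted by GC class. The balance of all genes turned the same way, from 8896 higher and 3057 lower in the main fit. It was 1536 and 3156 by edgeR, 2754 and 5965 with receptor background subtracted, and 2946 and 4019 by GC class. In control cerebellum, 14 (38.9%) were higher and 4 (11.1%) lower in control CD11b+ than in control GFP+ cells, beside 19.3% and 6.91% (26.2% either way) of all genes. These shares were not tested against each other. Members without overlap were 13 higher and 9 lower in tumors (all genes 36% and 14.8%) and 12 and 4 in control tissue (32.9% and 12.7%). Itgam was the sort marker, so its difference is a check and no result.

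In control tissue Itgb2 had 9462.3, 1960.8 and 8299.9 in CD11b+ cells and no read in GFP+ cells (at least 9982-fold higher, adjusted p = 2.79e-06). Itgb5 rose to 21174.4, 4982.9 and 26387.8 in CD11b+ cells, against 612.3, 34.5 and 655.2 in GFP+ cells (log2 fold change 5.86 ± 0.98, adjusted p = 0.00127), and made up 55.1% ± 7.17 of beta chain FPKM there. Itgb3, Itga6, Itga9, Itgal and Itga4 were also higher, with log2 fold changes of 7.35 ± 1.04, 3.58 ± 0.53, 6.20 ± 1.36, 6.12 ± 1.38 and 8.16 ± 0.89. These 5 calls held without any single library. Background equalled 98.9% of the Itga4 count in control CD11b+ cells, and its call was lost with background subtracted by GC class (adjusted p = 0.164), as were those of Itga5, Itga8, Itga11, Itgax, Itgb4, Itgb6, Itgb8 and Lama4. With receptor background subtracted, Itgb4, Itgb8 and Lama4 kept theirs. Lower in control CD11b+ cells were Itga3 (-4.21 ± 0.93, adjusted p = 0.0064), Itga7 (-3.60 ± 1.02, 0.0218), Itgb4 (-2.93 ± 0.92, 0.0326) and Itgb8 (-2.54 ± 0.70, 0.0186). Itga7 lost its call without control GFP+ 1 or 2 or control CD11b+ 1 or 3 (adjusted p of 0.0582 to 0.0704), Itgb4 without control GFP+ 1 or 3 or control CD11b+ 1 or 3 (0.0636 to 0.104), and Itgb8 without control GFP+ 1 or control CD11b+ 3 (0.0542 and 0.0707). Among laminins Lama4 was higher (4.66 ± 0.98, adjusted p = 0.00476), with background at 54.6% of its CD11b+ count.

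In tumors the matrix receptor chains Itga3, Itgav and Itgb1 were lower in the phagocytes. Itga3 had 49.0, 177.2 and 231.2 in RasV12 CD11b+ cells, against 2118.0, 2366.3 and 1309.7 in RasV12 GFP+ cells, and no library overlapped (log2 fold change -3.88 ± 0.93, adjusted p = 0.00687). Itgb1 and Itgav were lower in phagocytes as well (-2.63 ± 0.44 and -2.24 ± 0.58, adjusted p = 0.00133 and 0.00962), as were Lama5 and Lamc1 (-4.78 ± 1.68 and -2.07 ± 0.62, adjusted p = 0.0369 and 0.0189). All 5 of these remained called after either subtraction of background. Background was far higher in RasV12 CD11b+ than in RasV12 GFP+ cells, so subtraction mostly lowers the CD11b+ side. It is therefore no test of calls in that direction. In RasV12 CD11b+ cells background came to 77.0% of the observed Itga3 count, 125.3% of Itgav, 305.6% of Lama5, 16.9% of Itgb1 and 23.8% of Lamc1. Lama5 and Lamc1 lost their calls when single libraries were left out. For Lama5 these were RasV12 GFP+ 1, 2 and 3 and RasV12 CD11b+ 1 and 3, and for Lamc1 RasV12 GFP+ 2 and 3 and RasV12 CD11b+ 3 (adjusted p of 0.0524 to 0.101). Itgb2 was higher in RasV12 CD11b+ cells (3.54 ± 0.86, adjusted p = 0.00735), with 4.2% of its count estimated as background. Of the other 9 members higher in RasV12 CD11b+ cells apart from Itgam (Itgad, Itgae, Itgb6, Itgb8, Lama1, Lama2, Lama3, Lamb3 and Lamc3), none remained called after subtraction by GC class, and Itgb6 and Itgb8 did after subtraction of receptor background (adjusted p = 0.0487 and 0.0248). Background made up 98.0% of the Lama3 count, 275.3% of Lamc3, 55.2% of Lama2 and 27.8% of Itgb6 in those cells. Both comparisons within tumors and within control tissue use the same libraries as the RasV12 comparisons.

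The make-up of phagocyte integrins per length, with background left in, differed between tissues mainly in Itgam, Itga6 and Itgb5. Background was 12.6% of the Itgam count and 3.6% of Itgb5 in RasV12 CD11b+ cells, but 125.3% of Itgav and 308.3% of Itga4. Receptor background per kb was 59.8 to 91.5 in these libraries and 4.66, 38.1 and 4.82 in control CD11b+ 1, 2 and 3. Its part in the shares and sums below was not tested. Itgam made up 24.1% ± 8.79 of alpha chain FPKM in RasV12 CD11b+ cells and 43.8% ± 5.14 in control CD11b+ cells, and Itga6 10.5% ± 2.37 and 25.3% ± 5.37. Itgb5 made up 29.3% ± 4.06 and 55.1% ± 7.17 of beta chain FPKM, Itgb2 22.9% ± 7.09 and 23.2% ± 3.78, and Itgb1 19.8% ± 5.96 and 15.6% ± 0.651. The shares of Itgb2 and Itgb1 lay within each other's spread, and those of Itgam, Itga6 and Itgb5 did not. Summed beta chain FPKM was 101, 109 and 159 in RasV12 CD11b+ cells and 676, 187 and 761 in control CD11b+ cells. Alpha chains summed to 79.7, 90.6 and 108 FPKM against 122, 140 and 162.

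Of the 36 members, 12 share exonic bases with another annotated gene. Besides Itga4, Itgad and Itgam these include Itga8 (E030013I19Rik, 372 bases, opposite strand) and Itgav (Gm13684, 634 bases, opposite strand). Over shared bases, reads of partners on the opposite strand cannot be told from those of the member where strand is not marked. Reads of partners on the same strand, as for Itgam, cannot be told apart either way. Whether reads over shared bases were counted is not stated.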

How the data were processed

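RNA of GFP+ and CD11b+ cells was measured in 12 libraries, made with the SMARTer Universal Low Input and Nextera XT kits per the labels' protocols. The submitters' processing notes name bcl2fastq 2.17.1.14, HISAT2 2.1.0, featureCounts of Subread 1.6.2, DESeq2 1.20.0 and GRCm38.p6, with no further settings. The authors deposited normalized counts per gene (counts divided by a size factor, a signal and not raw counts) and FPKM. Dividing each library by its smallest step gave whole reads for 100% of values within 0.05 normalized counts, though in RasV12 GFP+ 1 and 3 that step is close to the rounding of the values. Of the gene IDs, 98.5% were in GENCODE M21 (GRCm38), the source of gene coordinates. Levels were tested as log2(normalized count + 1) with limma 3.58.1 (R 4.3.3) over all 12 libraries and all 29835 genes that passed the filter, with Benjamini-Hochberg adjustment at 0.05. Fold changes on this scale understate those of low genes. The difference of RasV12 effects was an interaction term. Genes of the partner lists were named by smallest adjusted p, up to 4 per list and comparison, among called genes with a group mean of at least 100. Alternatives were FPKM with a pseudocount of 0.1, 2 rescalings, pseudocounts, filters, the 6 libraries of a comparison, a replicate block, edgeR 4.0.16 and DESeq2 1.42.0 on the recovered reads, background subtraction, and each library left out. The FPKM of the members share the scaling of the normalized counts, so the FPKM fit is no second normalization of them. Background came from 1768 receptor genes or, by GC class, from 4876 genes. The fitting code was tested on simulated data. Tables and figures used Python 3.11.15, numpy 2.4.6, pandas 2.3.3, scipy 1.17.1 and matplotlib 3.10.9. The members and the lists were chosen with earlier results of these data known.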

Additional observations from a re-analysis of the deposited data

Results flagged for a closer look

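The RasV12 effect (log2 fold change of RasV12 over control) differed between CD11b+ and GFP+ cells for 10 members, as tested by an interaction term in limma over all genes. CD11b+ minus GFP+, the difference was -7.70 for Itga4, -9.01 for Itga5, -4.24 for Itga6, -8.06 for Itgal, -3.61 for Itgav, -3.61 for Itgb1, -8.85 for Itgb2 and -7.62 for Itgb3. It was 7.32 for Itgad and 5.89 for Itgb8. Both effects of each gene are those given in the report. The background estimate was above the observed mean of Itga4 and Itgav in RasV12 CD11b+ cells (308.3% and 125.3% of it).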

How the results depend on the processing

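Against 16 members called in RasV12 over control GFP+ cells, 9 were called after quantile normalization, 10 from the 6 libraries of the comparison, 9 by edgeR, 6 with receptor background subtracted, 5 with background subtracted by GC class (chosen after seeing the data) and 8 to 17 with single libraries left out. Against 2 in RasV12 over control CD11b+ cells, limma called 1 from FPKM, 0 with a pseudocount of 0.5, 6 with a pseudocount of 5, 0 with no filter, 1 with a minimum of 50, 0 from the 6 libraries, 3 (all lower, neither of the 2 among them) with receptor background subtracted and 0 after GC class subtraction, while edgeR called 1 and DESeq2 5, and 0 to 12 were called with single libraries left out. Where limma called 0 members, 7172, 9819, 6845 and 7530 of all genes had an unadjusted p under 0.05 in those 4 settings, in the order given. From the 6 libraries 0 of all 29835 genes were called at the adjusted threshold. The calls given for this comparison come from fits that also take the spread from the GFP+ libraries. Against 16 in tumor CD11b+ over GFP+ cells, edgeR called 9, GC class subtraction left 8 and leaving out libraries gave 10 to 17. Against 18 in control CD11b+ over GFP+ cells the counts were 11 and 9 with receptor and GC class background subtracted and 13 to 18 with libraries left out. Against 10 differences of effects, GC class subtraction left 6, and leaving out libraries gave 6 to 11. Of values called in either fit, signs turned in tumor CD11b+ over GFP+ cells: with receptor background subtracted Itga4 was at -8.06, Itgb4 at -7.22, Lama1 at -0.94, Lama3 at -0.27 and Lamc3 at 0.00, and by GC class Itga4 was at -7.84 and Lamc3 at 0.00. Values called in neither fit turned too, and in RasV12 over control CD11b+ cells 9 of 36 members changed sign with receptor background subtracted and 6 after quantile normalization. The cause of these changes was not tested. Same-numbered libraries shared only a number (correlations of deviations of -0.029 to 0.09), and a replicate block gave 15, 3, 16, 17 and 10 members in the 5 comparisons in the order above. The share of all calls that were higher, with the deposited scaling, upper-quartile scaling and quantile scaling, was 55.4%, 29.6% and 30.5% in RasV12 over control CD11b+ cells, 74.4%, 68.8% and 44.7% in tumor CD11b+ over GFP+ cells, 73.7%, 86.3% and 44.3% in control CD11b+ over GFP+ cells, and 46.9%, 19.1% and 39.8% for the difference of effects. Median log2 fold changes of all genes were 0.74, 0.19 and 0.13, then 1.79, 1.5 and 0.30, then 1.80, 2.31 and -0.02, then 0.07, -0.84 and 0.16 in the same order. The median standard error over all genes was 1.37 on the log2 scale, which limits what 3 libraries a group can show.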
